A study of Rattus norvegicus with 36 samples.

Results

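The comparison described here set liver transcript levels after 6.41 mg/kg of hexabromocyclododecane (HBCD), a flame retardant that carries bromine, against those after the corn oil vehicle. Its members were chosen by the dose in the sample titles, 6 arrays of HBCD at 6.41 mg/kg and 6 of vehicle, which are 12 of the 36 arrays of the series. All rats were male Sprague Dawley, aged 7 weeks when the study began. Both groups were dosed by oral gavage in corn oil, 5 ml/kg on each of 5 days, and kept on the same diet. Left liver lobe was taken 1 day after the last dose. The other groups, also of 6 arrays, received HBCD at 0.06, 0.641, 64.1 or 641 mg/kg, and those at 0.641 and 64.1 mg/kg serve below as the neighbouring doses. Replicates are numbered in the labels, which do not state whether each came from its own animal; the p-values and intervals therefore describe scatter among these arrays, part of which may be technical. Males of a single strain were used, and the RNA is that of whole lobe tissue.

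All levels are log2 probe set values, reported as a group mean with its SD over 6 arrays, and a difference of 1 on this scale is a doubling. The deposited values were already summarised per probe set. Array medians of these 2 groups ran from 4.84 to 4.89, and pairwise correlations within a group, over all probe sets, lay between 0.994 and 0.997. The tissue label fitted its defining markers. Albumin (Alb) stood at 14.53 ± 0.01 in vehicle and 14.54 ± 0.01 at 6.41 mg/kg, and the mean of 19 hepatocyte genes was 13.1 to 13.2 on each of the 12 arrays. The number of arrays limits the precision of each value.

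Liver cells meet foreign lipophilic compounds with a set of inducible genes. The nuclear receptors CAR and PXR raise cytochrome P450 monooxygenases of the Cyp2b and Cyp3a families, carboxylesterases, glucuronosyltransferases and transporters, which oxidise, hydrolyse, conjugate and export such compounds. NRF2 serves glutathione and redox metabolism, AhR controls the Cyp1 family, and PPARα controls fatty acid oxidation. Rodent Cyp2b and Cyp3a genes are widely used markers of CAR and PXR activity. The comparison asks how large any difference in these genes was at 6.41 mg/kg, and how large it had to be to be detected.

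No probe set passed the test at 6.41 mg/kg. Of 31042 probe sets, 0% were called higher and 0% lower at an adjusted p under 0.05 (limma, two-sided, Benjamini-Hochberg over all probe sets), and the smallest adjusted p was 1.00. Every ratio of 6.41 mg/kg to vehicle below has that adjusted p of 1.00, and the 95% confidence interval from the same fit stands beside it in brackets. At an unadjusted p under 0.05, 1282 probe sets (4.13%) differed, 617 higher (1.99%) and 665 lower (2.14%), where a flat distribution of p would give 1552.1. The lowest bin of p therefore held fewer probe sets than a flat distribution. Both groups were fully separated, with every treated array above or below every vehicle array, in 25 probe sets upward (0.0805%) and 31 downward (0.0999%). Among the 14217 probe sets that each stand for 1 gene, 1.91% were higher and 1.71% lower at an unadjusted p under 0.05, and 50.9% had a difference above 0. These shares are the background for the gene groups that follow.

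**Figure D1:**
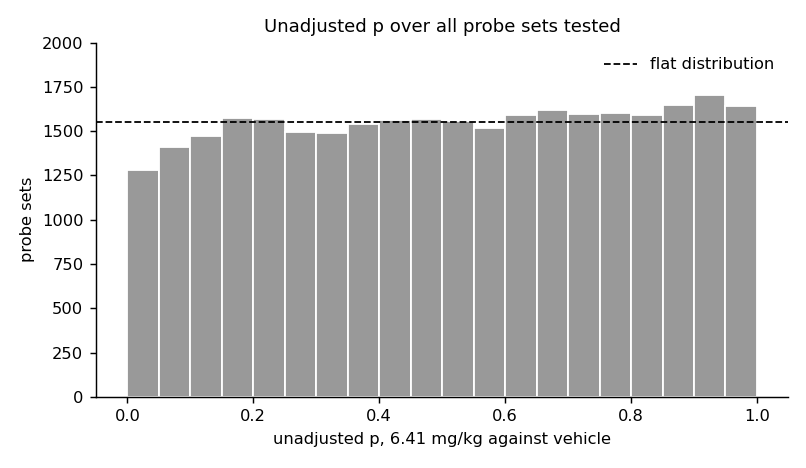
Number of probe sets (vertical axis) by unadjusted limma p for 6.41 mg/kg against vehicle (horizontal axis, bins of 0.05), with the dashed line at the count of a flat distribution, 1552.1 per bin. The first bin, at p under 0.05, holds 1282 probe sets and lies below the line.

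How large a difference could have been missed was read from the standard error of each probe set. As the only call among 31042, a probe set needed an unadjusted p of 1.61e-06. That corresponded to a median of 1.38-fold over all probe sets, with the 5th percentile at 1.23-fold and the 95th at 1.75-fold. To pass in 80% of repeats, the median true difference had to be 1.45-fold. By mean level, the median was 1.24-fold at 10 and over, 1.29-fold between 8 and 10, 1.35-fold between 6 and 8, 1.42-fold between 4 and 6, and 1.40-fold under 4. A difference of 1.25-fold or less could be a single call in 7.85% of probe sets, 1.5-fold or less in 80.8%, and 2-fold or less in 97.5%. The adjustment asks for less when other probe sets pass too, so every size given below as needed is that of a single call. At 64.1 mg/kg against vehicle, for example, Hsd17b2 was called at 1.46-fold, under its single-call size of 1.53-fold.

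A panel of 40 liver inducible genes was used to read the comparison. It was measured by 35 probe sets, of which 32 carry 1 gene symbol, 1 is listed under both Cyp2b1 and Cyp2b2, and 2 are listed under several Ugt1a genes. The remaining panel genes had no probe set of their own in the annotation used and are not analysed here by name. Of the 35 probe sets, 27 stood higher and 8 lower at 6.41 mg/kg, and 0 were called. At an unadjusted p under 0.05, 7 were higher (20%) and 0 lower. These 7 were the Cyp2b1 and Cyp2b2 probe set, Ces2c, Aldh1a1, Ugt2b1, Cyp3a23-3a1, Ephx1 and Gsta3. Of the 32 with 1 symbol 6 were higher (18.8%), where the background for such probe sets is 1.91%. The panel and the lists below were chosen with earlier results of these data known, from doses that share these vehicle arrays. Such shares describe the chosen genes and do not test them. The smallest difference that would have been a single call ran from 1.16-fold to 5.93-fold over the panel, with a median of 1.57-fold. It was 1.5-fold or less for 14 of the 35 and 2-fold or less for 26. The upper 95% bound lay under 1.25-fold for 16 probe sets, under 1.5-fold for 27 and under 2-fold for 32.

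**Figure D2:**
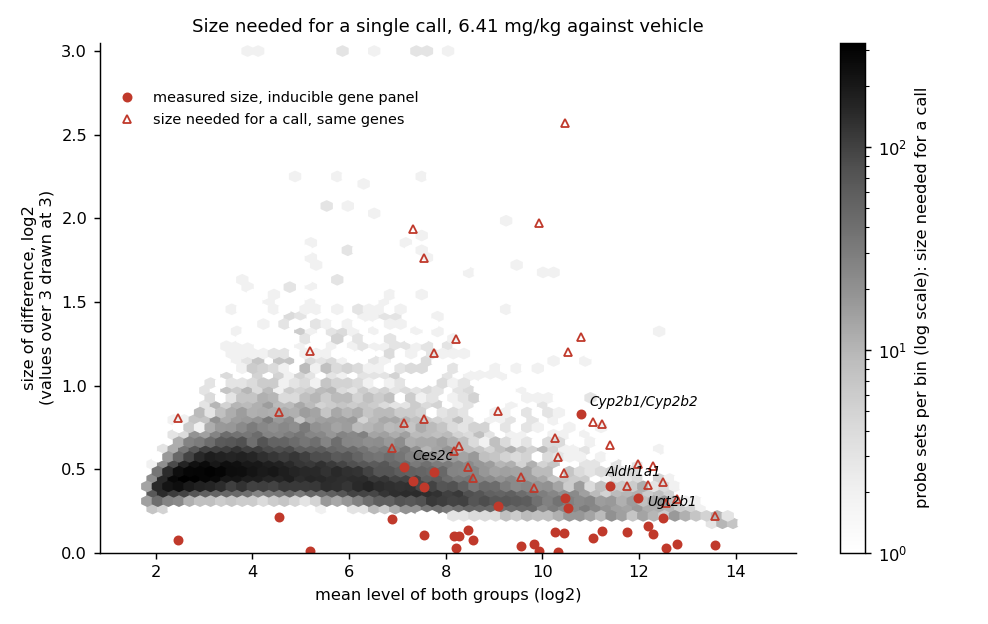
Mean log2 level of both groups (horizontal axis) against the size of a log2 difference (vertical axis); grey hexagons count all probe sets by the size needed for a single call, on a log scale, with sizes over 3 drawn at 3. Red dots are the measured sizes of the 35 panel probe sets and open triangles the sizes those probe sets needed; each dot lies below its own triangle, for example 1.78-fold against 2.45-fold for Cyp2b1/Cyp2b2.

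The probe set shared by Cyp2b1 and Cyp2b2, the phenobarbital-inducible P450s, had the largest measured difference of the panel. Vehicle arrays ran from 9.66 to 10.84 with a median of 10.55, and arrays at 6.41 mg/kg from 10.53 to 11.81 with a median of 11.31. The 4 highest treated arrays lay above every vehicle array, and replicates 5 and 6 lay within the vehicle range. The means were 10.38 ± 0.47 and 11.21 ± 0.51, a ratio of 1.78-fold (95% CI 1.30 to 2.44), and this probe set needed 2.45-fold to be a single call. Which of these near-identical genes gave the signal cannot be told from a shared probe set.

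The Cyp3a monooxygenases, which oxidise steroids and many drugs, are the classical PXR genes. The sequences upstream of the pair with the highest levels are shown because Cyp3a23-3a1 was the only gene called between 6.41 mg/kg and the next dose, as given further on. They come from RefSeq (GRCr8), 250 bases before the start of each gene, and capitals mark the run that matches AGTTCA repeated directly with a spacer of 3 free bases, searched on both strands (the printed run is its reverse complement). Repeats of this form are known as PXR elements in rodent Cyp3a promoters.
Cyp3a23-3a1: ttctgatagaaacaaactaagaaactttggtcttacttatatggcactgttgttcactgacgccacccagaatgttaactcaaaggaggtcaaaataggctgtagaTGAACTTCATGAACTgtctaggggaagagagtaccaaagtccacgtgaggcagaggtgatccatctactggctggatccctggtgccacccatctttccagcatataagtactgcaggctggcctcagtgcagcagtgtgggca
Cyp3a2: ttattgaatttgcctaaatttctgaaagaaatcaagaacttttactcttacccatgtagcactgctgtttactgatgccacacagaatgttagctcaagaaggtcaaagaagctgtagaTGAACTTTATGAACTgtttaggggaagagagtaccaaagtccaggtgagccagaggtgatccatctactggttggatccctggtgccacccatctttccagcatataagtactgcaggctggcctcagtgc
The Cyp3a23-3a1 window is chr12:14398804-14399053 on the minus strand, with the match at bases -144 to -130 counted from the gene start. The Cyp3a2 window is chr12:14343858-14344107, also on the minus strand, with the match at -131 to -117. Among the upstream windows of 33469 RefSeq entries, only these 2 held the repeat (0.00598%), and 22 of the listed CAR and PXR genes had a window. The same repeat with a spacer of 4 was found in 4 windows (0.012%), none of a listed gene, and the everted form, TGAACT and AGTTCA with a spacer of 6, in 0. Only exact copies of AGTTCA within 250 bases were sought. Other forms of these repeats and sites further from the gene were not searched, so a window without a match does not show that a gene lacks them. The windows of the pair were identical at 210 of 265 aligned positions (79.2%). Repeats of this form are known from rodent Cyp3a promoters, so finding them in this similar pair is no further evidence. A match is a description of letters and was not tested for binding.

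Cyp3a23-3a1 stood at 12.39 ± 0.17 in vehicle (12.12 to 12.60, median 12.44) and at 12.60 ± 0.20 at 6.41 mg/kg (12.32 to 12.85, median 12.66). The 4 highest treated arrays lay above every vehicle array, while replicates 4 and 5 lay within the vehicle range. The ratio was 1.15-fold (1.04 to 1.28) and the size needed for a single call 1.34-fold. Cyp3a2, which carries the same repeat, was close to the top of the array's range at 13.55 ± 0.03 and 13.59 ± 0.05, or 1.03-fold (0.978 to 1.09), and needed only 1.16-fold. The male-predominant Cyp3a18 stood at 1.08-fold (0.950 to 1.23) and Cyp3a9 at 0.981-fold (0.717 to 1.34). Cyp3a9 had a vehicle SD of 0.54 and needed 2.43-fold, so the precision differed widely within the Cyp3a family. Por, the reductase that supplies P450s with electrons, stood at 1.07-fold (0.916 to 1.25). Alas1, the first enzyme of haem synthesis, stood at 0.916-fold (0.774 to 1.08).

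Ces2c, a carboxylesterase that hydrolyses ester compounds, ran from 6.55 to 7.44 in vehicle (median 6.80) and from 7.19 to 7.84 at 6.41 mg/kg (median 7.32). Vehicle replicate 1, at 7.44, lay above 4 of the 6 treated arrays, and the other vehicle arrays lay below them all. The means of 6.87 ± 0.31 and 7.38 ± 0.25 gave 1.43-fold (1.18 to 1.72), against 1.71-fold needed. Aldh1a1, a retinaldehyde dehydrogenase, ran from 10.72 to 11.45 in vehicle (median 11.25) and from 11.38 to 11.82 (median 11.62). Its lowest treated arrays, replicates 3 and 4 at 11.38, lay below vehicle replicates 1 and 6. The ratio was 1.32-fold (1.12 to 1.54), with 1.57-fold needed. Ephx1, the microsomal epoxide hydrolase, stood at 12.10 ± 0.14 and 12.26 ± 0.10, or 1.12-fold (1.01 to 1.23), with 1.32-fold needed. Its vehicle arrays reached 12.31 and overlapped 4 of the 6 treated arrays.

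Among the conjugating enzymes of the panel, Ugt2b1, a glucuronosyltransferase, had the clearest separation. Vehicle arrays ran from 11.37 to 12.09 (median 11.88) and treated arrays from 11.93 to 12.22 (median 12.16), with 5 of 6 treated arrays above every vehicle array. The ratio was 1.25-fold (1.10 to 1.43), with 1.44-fold needed. The probe sets shared by Ugt1a genes, which also conjugate thyroxine and bilirubin, stood at 1.02-fold (0.948 to 1.10) and 1.09-fold (0.989 to 1.20). Gsta3, a glutathione transferase, ran from 7.05 to 8.25 in vehicle (median 7.48) and from 7.57 to 8.28 (median 8.05). Its groups overlapped over most of their range, and the ratio of 1.40-fold (1.04 to 1.87) compares with 2.29-fold needed. Gstp1, another glutathione transferase, stood at 0.947-fold (0.849 to 1.06).

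Neither exporter of the panel was called. Abcc3, which moves conjugates from the hepatocyte to the blood, ran from 4.63 to 5.69 in vehicle (median 5.19) and from 4.43 to 5.47 at 6.41 mg/kg (median 5.32). The treated range lay largely inside the vehicle range, the ratio was 0.993-fold (0.739 to 1.33), and 2.31-fold was needed for a single call. Abcb1a, a multidrug exporter, stood at 6.78 ± 0.24 and 6.99 ± 0.11, or 1.15-fold (0.987 to 1.34), in the probe set that stands for it. Its other probe set also stood higher, and 1 of the 2 had an unadjusted p under 0.05.

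**Figure D3:**
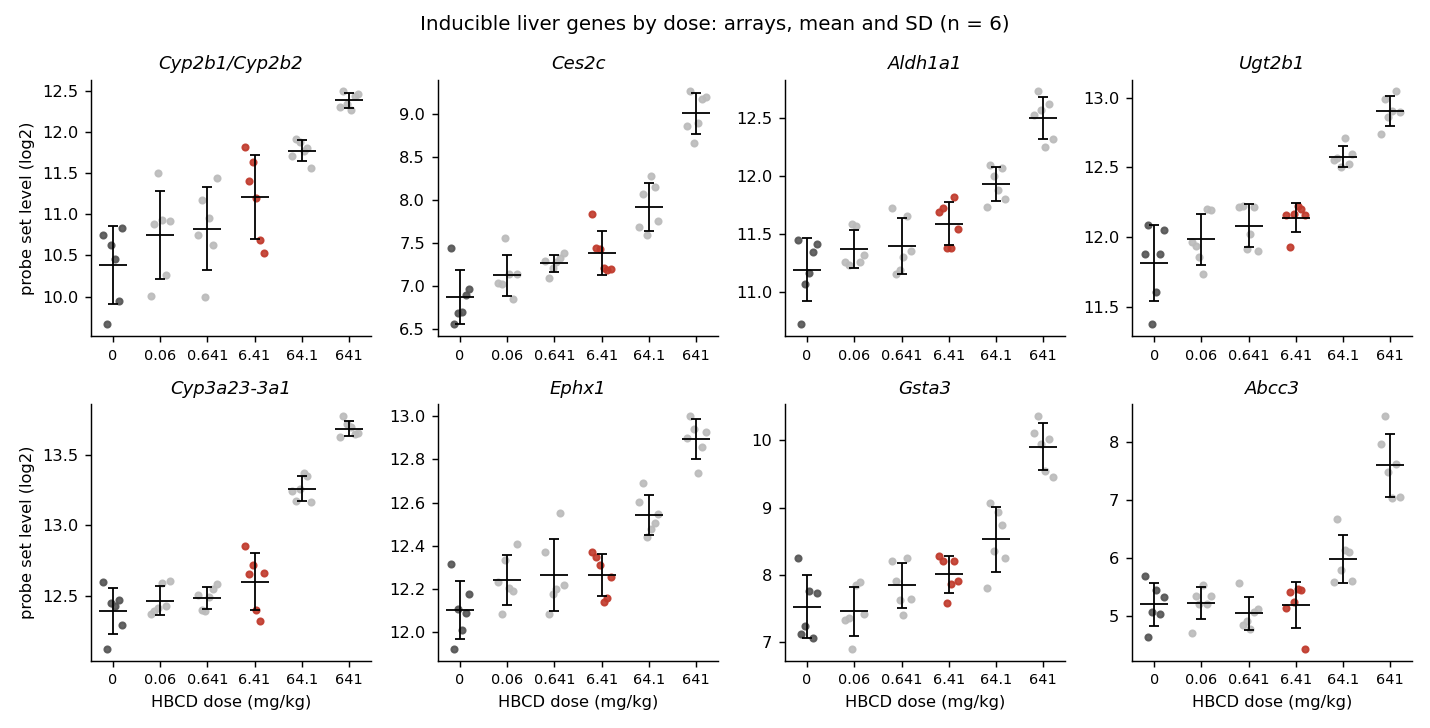
Log2 level (vertical axes, own scale per gene) of 8 panel probe sets on each array, by HBCD dose (horizontal axis, mg/kg); dark dots are vehicle, red dots 6.41 mg/kg and grey dots the other doses, with bars for mean and SD (n = 6). At 6.41 mg/kg the dots overlap those of vehicle in every gene, and Abcc3 stands at 5.19 ± 0.39 against 5.20 ± 0.37.

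As the list of 26 CAR and PXR targets, 18 were measured by a probe set of their own, 13 stood higher and 5 lower, and 0 were called. At an unadjusted p under 0.05, 7 were higher (38.9%, background 1.91%) and 0 lower. Beside Ces2c, Aldh1a1, Ugt2b1, Cyp3a23-3a1 and Ephx1 these were the uptake transporter Slco1a4 at 1.15-fold (1.00 to 1.32) and Cyp2c6v1, a P450, at 1.08-fold (1.02 to 1.15). The median log2 difference of the list was 0.12, against 0.0015 over all probe sets that stand for a gene. The mean level of its members ran from 9.72 to 9.97 in vehicle and from 9.88 to 10.15 at 6.41 mg/kg, and 3 treated arrays lay above every vehicle array. At 0.641 mg/kg the mean level ran from 9.89 to 10.06, so the offset from vehicle was not particular to 6.41 mg/kg. Between 6.41 and 0.641 mg/kg the list's median log2 difference was 0.034. The count of 7 stayed between 5 and 8 when each array was left out in turn.

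NRF2 targets stood on both sides of vehicle. Of 23 measured members of 29, 11 stood higher and 12 lower, with a median log2 difference of -0.0071, and 2 were higher at an unadjusted p under 0.05 (8.70%), Gsta3 and Me1, the malic enzyme that supplies NADPH, at 1.28-fold (1.05 to 1.56). Nqo1, the quinone reductase often read as an NRF2 marker, ran from 6.86 to 9.37 in vehicle (median 7.17) and from 6.97 to 7.35 at 6.41 mg/kg (median 7.09). A single vehicle array, replicate 2 at 9.37, lay far above the others. The ratio was 0.742-fold (0.462 to 1.19), and 3.82-fold was needed for a single call. Without that array the log2 difference was -0.063, where it was -0.43 with it. The glutamate-cysteine ligase subunits, which start glutathione synthesis, were measured more tightly, Gclc at 0.964-fold (0.877 to 1.06) and Gclm at 1.08-fold (0.965 to 1.22). Glutathione reductase Gsr stood at 1.10-fold (0.967 to 1.24), thioredoxin reductase Txnrd1 at 1.03-fold (0.920 to 1.15) and haem oxygenase Hmox1 at 0.933-fold (0.804 to 1.08). Akr7a3, an aldehyde reductase, stood at 0.940-fold (0.776 to 1.14).

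The AhR gene Cyp1a2 was bright and precise, at 12.75 ± 0.07 and 12.81 ± 0.06, or 1.04-fold (0.959 to 1.12), with 1.25-fold needed. Cyp1a1, the most inducible AhR gene, stood just below the array medians at 4.45 ± 0.18 and 4.67 ± 0.30, or 1.16-fold (0.946 to 1.43). Of 7 measured AhR targets of 8, 0 reached an unadjusted p under 0.05 and 0 were called. PPARα targets had 28 of 33 members measured, 18 higher and 10 lower. Of these only Ehhadh, a peroxisomal enzyme of fatty acid oxidation, reached an unadjusted p under 0.05 (3.57%), at 1.19-fold (1.01 to 1.41). The fatty acid hydroxylase Cyp4a1 stood at 1.09-fold (0.905 to 1.32), and Cpt1a, which admits fatty acids to mitochondria, at 1.00-fold (0.873 to 1.15). Acot1, a thioesterase, had a level of 2.42 ± 0.15 in vehicle, below every array median, and stood at 1.05-fold (0.865 to 1.28).

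**Figure D4:**
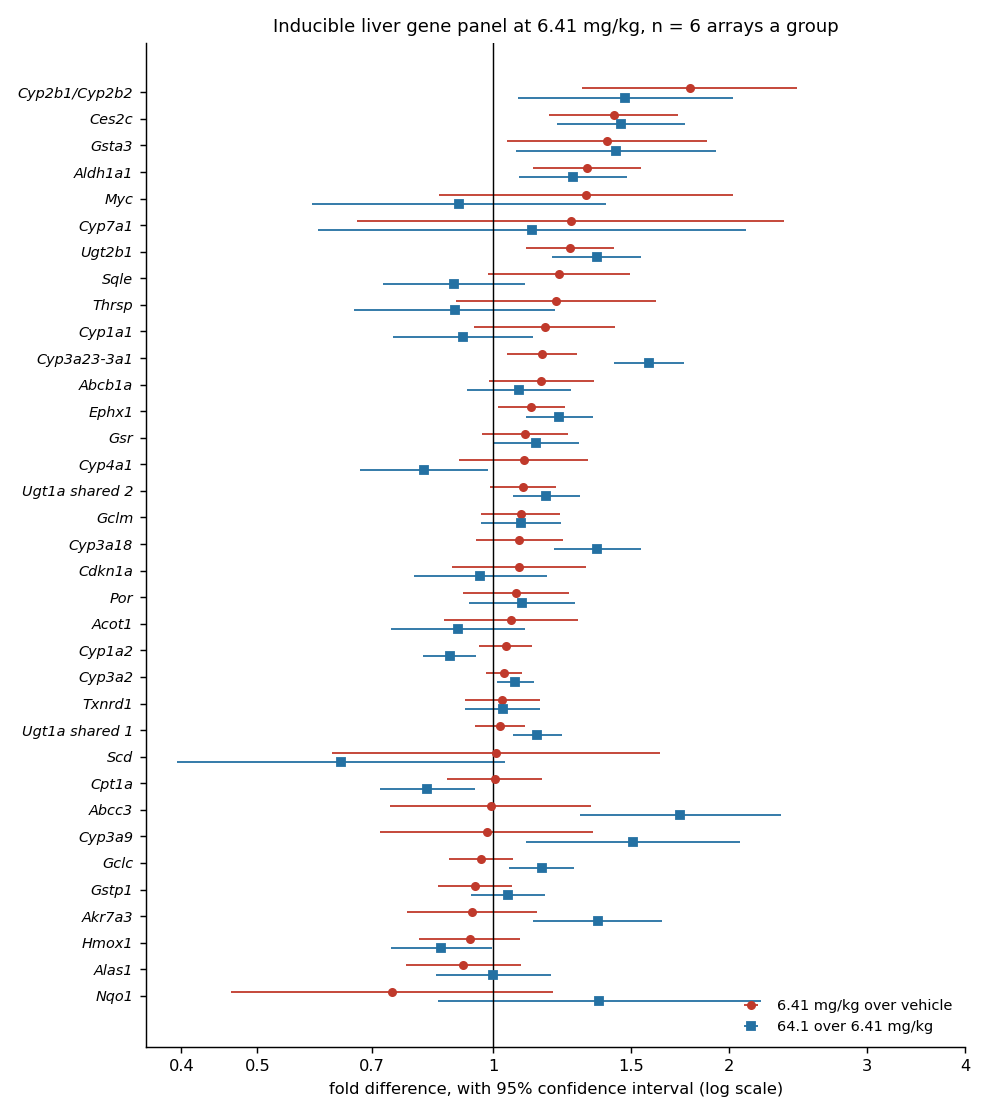
Fold difference with its 95% confidence interval (horizontal axis, log scale) for the 35 panel probe sets (rows), 6.41 mg/kg over vehicle in red circles and 64.1 over 6.41 mg/kg in blue squares, n = 6 arrays per group. The red intervals lie under 2-fold in 32 of 35 rows, and the blue interval of Cyp3a23-3a1 (1.42 to 1.75) lies wholly above its red one (1.04 to 1.28).

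Genes of cholesterol synthesis stood higher together, within the spread of the arrays. All 20 measured members of 25 had a difference above 0 (50.9% over all genes), 9 of them at an unadjusted p under 0.05 (45%, background 1.91%), and 0 were called. The isomerase Idi1 stood at 1.26-fold (1.05 to 1.51), squalene synthase Fdft1 at 1.18-fold (1.04 to 1.34) and the sterol demethylase Cyp51 at 1.18-fold (1.01 to 1.36). Squalene epoxidase Sqle, the member in the panel, stood at 8.94 ± 0.26 and 9.22 ± 0.35, or 1.21-fold (0.985 to 1.49). The mean level of the members ran from 9.61 to 10.22 in vehicle and from 9.78 to 10.37 at 6.41 mg/kg. Vehicle replicate 1, at 10.22, lay among the treated arrays, and only 2 of these lay above it. Treated replicates 5 and 6, at 9.78 and 10.02, lay among the other vehicle arrays. The count of 9 rested on single arrays: it was 1 without vehicle replicate 2 or 3, 3 without treated replicate 1 or 2, 5 without treated replicate 4, and 14 without treated replicate 5. Between 6.41 and 0.641 mg/kg the list's median log2 difference was -0.021, and between 64.1 and 6.41 mg/kg it was -0.11.

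Other lipid genes had wide spreads. Scd, which puts the first double bond into saturated fatty acids, ran from 8.19 to 11.12 in vehicle (median 10.13) and from 9.40 to 11.29 at 6.41 mg/kg (median 9.67). Its ratio was 1.01-fold (0.622 to 1.63), and a single call needed a 3.92-fold difference. Thrsp, a lipogenic gene that responds to thyroid hormone, stood at 1.20-fold (0.895 to 1.61). Cyp7a1, which commits cholesterol to bile acids, ran from 8.55 to 11.35 in vehicle (median 10.43) and from 9.37 to 11.52 (median 10.74). It had the widest limit of the panel, 5.93-fold, with a ratio of 1.25-fold (0.669 to 2.35). Its direction rested on vehicle replicate 2, at 8.55: the log2 difference was 0.33 with that array and -0.022 without it. In fatty acid and triglyceride synthesis, 3 of 21 measured members of 22 were higher at an unadjusted p under 0.05 (14.3%) and 0 lower. They were the desaturases Fads2 at 1.27-fold (1.09 to 1.48) and Fads1 at 1.13-fold (1.04 to 1.23), and Me1. In the bile acid list, 2 of 24 measured members were higher (8.33%), both uptake transporters. Slco1a1 ran from 9.76 to 9.88 in vehicle and from 9.89 to 10.01 at 6.41 mg/kg, with a ratio of 1.08-fold (1.01 to 1.16). Its groups did not overlap, as in 0.0805% of all probe sets upward. The other was Slco1a4.

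In the list for thyroid hormone handling and response, 3 of 16 measured members of 19 were higher at an unadjusted p under 0.05 (18.8%), Ugt2b1, Me1 and Slco1a4, all named above. The mean level of this list ran from 8.79 to 8.97 in vehicle and from 8.93 to 9.08 at 6.41 mg/kg, with 5 treated arrays above every vehicle array. At 0.641 mg/kg it ran from 8.91 to 9.03, so this offset was not particular to 6.41 mg/kg either. The deiodinase Dio1 stood at 1.00-fold (0.896 to 1.12). The proliferation genes in the panel were not called: Myc, a growth regulator, stood at 1.31-fold (0.851 to 2.02) and the cell cycle inhibitor Cdkn1a at 1.08-fold (0.887 to 1.31). In the cell cycle list 26 of 28 measured members stood higher (50.9% over all genes). Of these, 1 was at an unadjusted p under 0.05 (3.57%, background 1.91%), thymidine kinase Tk1. The mean level of this list ran from 5.38 to 5.91 in vehicle and from 5.45 to 6.10 at 6.41 mg/kg, with 1 treated array above every vehicle array. Its median log2 difference between 6.41 and 0.641 mg/kg was -0.0084. Among the stress lists, 1 of 22 endoplasmic reticulum stress genes was higher (Dnajb9, a chaperone partner, at 1.20-fold), 0 of 6 heat shock and metal response genes differed, and of 14 p53 targets 1, Sesn2, was lower at 0.860-fold (0.757 to 0.976). In the p53 and endoplasmic reticulum lists most members stood on the other side of vehicle from the one named: 12 p53 targets stood higher and 2 lower (median log2 difference 0.076), and 8 endoplasmic reticulum stress genes stood higher and 14 lower (median -0.034). Of 22 acute phase genes 1 was higher, Il1rn, an inhibitor of interleukin signalling, at 1.14-fold (1.00 to 1.29). In the male-predominant list Slco1a1 was the 1 of 10 measured members that differed.

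Markers of other liver cells were read alongside. Of 12 measured macrophage markers, 11 stood lower and 1 higher, 0 at an unadjusted p under 0.05, with a median log2 difference of -0.11 that ran from -0.21 to 0.034 over the alternatives. Their mean level ran from 8.69 to 8.99 in vehicle and from 8.04 to 9.19 at 6.41 mg/kg, with treated replicate 2 lowest and replicate 4 highest. The Kupffer cell lectin Clec4f stood at 0.874-fold (0.660 to 1.16) and Cd163 at 0.910-fold (0.755 to 1.10). In whole tissue, fewer cells of a type and less RNA per cell cannot be told apart. Of 14 T and NK lymphocyte markers 1, Cd2, was higher at 1.11-fold (1.01 to 1.20), of 14 stellate cell markers 1, Acta2, was lower at 0.831-fold (0.695 to 0.994), and of 7 cholangiocyte markers 1, Cldn4, was lower at 0.909-fold (0.828 to 0.998). In the neutrophil (7 measured), B lymphocyte (5), endothelial (12), erythroid (8) and exocrine pancreas (12) lists 0 markers reached an unadjusted p under 0.05. Of the 19 hepatocyte genes 0 did, and their median log2 difference was 0.0013. The part of these markers in the values above was not tested.

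**Figure D5:**
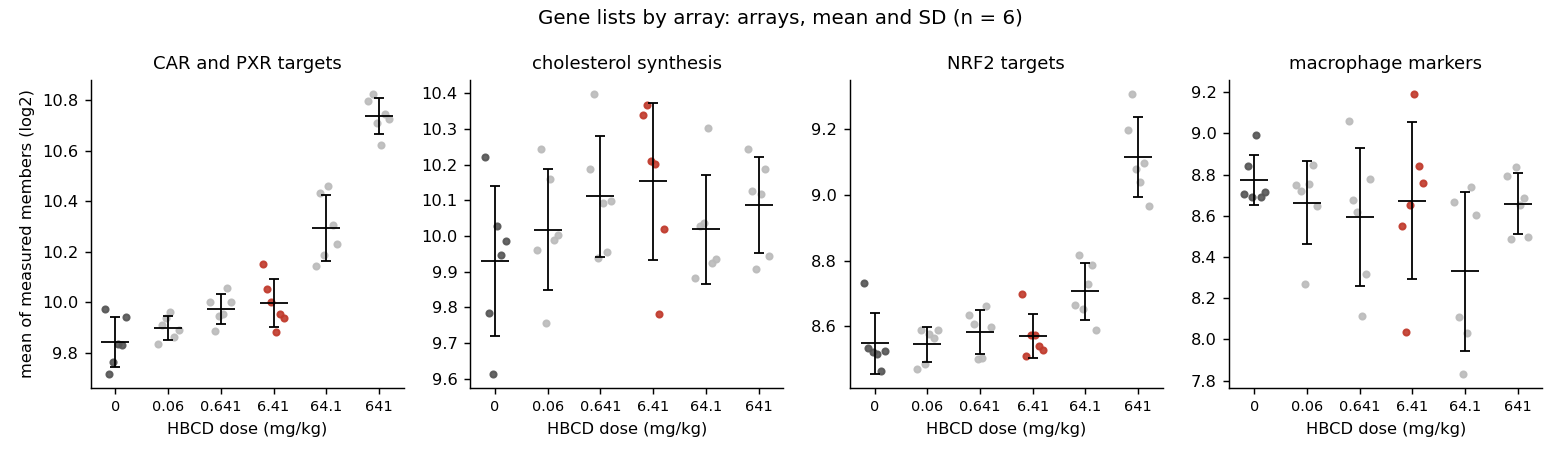
Mean log2 level of the measured members of 4 gene lists on each array (vertical axes, own scale per list) by HBCD dose (horizontal axis, mg/kg), with bars for mean and SD over 6 arrays; dark dots are vehicle, red dots 6.41 mg/kg and grey dots the other doses. At 6.41 mg/kg CAR and PXR targets run from 9.88 to 10.15 against 9.72 to 9.97 in vehicle, and macrophage markers spread from 8.04 to 9.19.

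The genes with the smallest p over the whole array were named by rule, and none was called. The higher ones were Cyp2b12, a P450 of the Cyp2b family, at 1.24-fold (1.12 to 1.38), Orc1, a subunit of the replication origin complex, at 1.16-fold (1.08 to 1.26), Ces2c of the panel, Nampt, an enzyme of NAD synthesis, at 1.31-fold (1.13 to 1.52), and Dram2 at 1.12-fold (1.05 to 1.19). Cyp2b12 and Orc1 were fully separated between the groups, at 2.26 to 2.53 against 2.57 to 3.13 for Cyp2b12, at levels below every array median. Dram2, at 9.86 to 9.99 against 10.04 to 10.13, was fully separated at a level well above the medians. The lower ones were Fat1, an atypical cadherin, at 0.813-fold (0.717 to 0.920), Zfp704, Mmrn1, Tmem174 and Fer1l5, with ratios from 0.640-fold for Fer1l5 to 0.879-fold for Tmem174. Of these only Tmem174 was fully separated, at 2.59 to 2.92 in vehicle and 2.46 to 2.58 at 6.41 mg/kg, again below every array median. Over all probe sets, 0.0805% were separated upward and 0.0999% downward. Genes picked for the smallest p in this same comparison are likely to be separated, so their separation is no further evidence.

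The next dose, 64.1 mg/kg, was set against 6.41 mg/kg. Vehicle arrays do not enter this difference, but they share in the spread estimated over all 36 arrays. Of 31042 probe sets 1 was called higher (0.00322%) and 0 lower (0%), that of Cyp3a23-3a1. It stood at 12.60 ± 0.20 at 6.41 mg/kg and 13.26 ± 0.09 at 64.1 mg/kg, a rise of 1.58-fold (95% CI 1.42 to 1.75; limma adjusted p = 3.72e-06). With the spread taken from these 2 groups alone, the limma adjusted p was 0.0392, and Ugt2b1 was called as well (adjusted p = 0.0471). In the panel, 15 of 35 probe sets were higher at an unadjusted p under 0.05 and 4 lower, against 3.01% and 2.76% of all probe sets (5.77% in either direction). Of the 18 measured CAR and PXR targets 12 were higher and 0 lower, where 3.04% and 3.17% of all genes were. The panel and the lists were chosen with earlier results of these data known. Here too, such shares describe the chosen genes and do not test them. Without treated replicate 1 of 6.41 mg/kg a second probe set was called, that of Cyp3a18, at 1.43-fold. Without replicate 2 it was an unnamed one at a mean level of 3.16. The remaining panel genes were not called: Ugt2b1 and Cyp3a18 stood at 1.35-fold and 1.36-fold (limma adjusted p = 0.261 for each), Ces2c at 1.46-fold (1.20 to 1.76) and Abcc3 at 1.73-fold (1.29 to 2.33). Cyp1a2 stood at 0.880-fold (0.813 to 0.951) and Cpt1a at 0.824-fold (0.717 to 0.947). Macrophage markers also stood lower in that comparison, 7 of 12 at an unadjusted p under 0.05 with a median log2 difference of -0.36, and their part in it was not tested.

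Against 0.641 mg/kg, in the same fit over all 36 arrays, 0 probe sets were called (0%), with 1537 at an unadjusted p under 0.05 (4.95%; 2.29% higher and 2.66% lower) and a smallest limma adjusted p of 0.967. None of the 35 panel probe sets reached an unadjusted p under 0.05 in either direction. The Cyp2b1 and Cyp2b2 probe set stood at 1.31-fold (0.953 to 1.79), Aldh1a1 at 1.14-fold (0.976 to 1.34), Cyp3a23-3a1 at 1.08-fold (0.977 to 1.20), Ces2c at 1.09-fold (0.899 to 1.31) and Ugt2b1 at 1.04-fold (0.914 to 1.18). Among the CAR and PXR targets 1 was higher and 1 lower, against 2.47% and 2.18% of all genes. The intervals leave room for differences between these doses up to their upper bounds.

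Over the doses, the Ces2c level was 6.87 ± 0.31 in vehicle, 7.13 ± 0.24 at 0.06, 7.26 ± 0.10 at 0.641, 7.38 ± 0.25 at 6.41, 7.93 ± 0.28 at 64.1 and 9.01 ± 0.24 at 641 mg/kg. Cyp3a23-3a1 stood at 12.39 ± 0.17, 12.47 ± 0.10, 12.49 ± 0.08, 12.60 ± 0.20, 13.26 ± 0.09 and 13.69 ± 0.06 in the same order. Abcc3 stood at 5.20 ± 0.37, 5.23 ± 0.28, 5.05 ± 0.29, 5.19 ± 0.39, 5.98 ± 0.41 and 7.59 ± 0.54. Neighbouring means from vehicle to 6.41 mg/kg differed by less than the larger SD of the pair in all 3 of these genes. The 13 probe sets called at 64.1 mg/kg against the same vehicle arrays (0.0419%) included those of 5 genes outside the panel. Their ratios at 64.1 and 6.41 mg/kg were 1.46-fold and 1.25-fold (1.07 to 1.45) for the steroid dehydrogenase Hsd17b2, and 1.40-fold and 1.10-fold (0.973 to 1.25) for the glucuronosyltransferase Ugt2a1. They were 1.30-fold and 1.07-fold (0.976 to 1.18) for Mgst2, a microsomal glutathione transferase, and 1.16-fold and 1.08-fold for Cyp2c6v1. The called probe set of Slco1a4, which is not the one that stands for the gene above, gave 1.52-fold and 1.27-fold. The 2 comparisons share their vehicle arrays, so an array that departs there moves both.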

How the data were processed

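The series holds 36 arrays, 6 for each of its groups; group and replicate number come from the sample labels. The authors deposited log2 values per probe set. The submitters' processing notes name RMA, which corrects background, normalizes between arrays and combines probes, and the affy package, with no version. That the scale is log2 follows from RMA and from the range of the values, 1.53 to 14.6; scanner files and detection calls were not used here. No pair of arrays was identical, and no further normalization was applied.

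Tests ran on 31042 probe sets, without the 57 that are array controls. In GEO's platform annotation 20826 have 1 symbol, 436 several and 9780 none; symbols were updated through RefSeq's GRCr8 gene table (20758 by gene ID, 2 by accession, 66 kept). Each of 14217 symbols is represented by the brightest of its probe sets, by mean over the 36 arrays.

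The series design names R/maanova at a false discovery rate of 5%; limma 3.58.1 in R 4.3.3 was used instead, with group as the only factor over all 36 arrays, two-sided tests, Benjamini-Hochberg adjustment over all probe sets within a contrast, calls at an adjusted p under 0.05, and 95% confidence intervals from the moderated fit. The size needed for a single call is the standard error times 5.75, the t value at an unadjusted p of 1.61e-06 and 35.2 degrees of freedom. The step was tested on simulated data.

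The members, the 28 gene lists and the panel were chosen with earlier results of these data known. Named genes are the panel, the 5 genes of smallest p in each direction, and per list the member of smallest p; any other gene was named after its values were seen. Outlying arrays were sought with Dixon's test. Alternatives were a block for replicate number, 2 other scalings, leaving out probe sets under a mean of 6 in both groups, the variance model, array weights, the groups in the fit, the adjustment, the probe sets of a gene, and leaving out each array. Upstream sequences are RefSeq's.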

Additional observations from a re-analysis of the deposited data

Results flagged for a closer look

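Single arrays stood apart from the other 5 of their group by Dixon's test in 7 of 136 combinations of a named gene and a group, where 6.8 are expected at 1 in 20. Nqo1 in vehicle replicate 2 stood at 9.372 with the next vehicle array at 7.614, and Hmox1, another NRF2 target, stood at 8.429 in the same array with the next at 8.239. Abcc3 in replicate 6 of 6.41 mg/kg stood at 4.43, below the next array at 5.138. Ugt2b1 in replicate 2 of 6.41 mg/kg stood at 11.93, below the next at 12.16. Fdft1 in replicate 5 of 6.41 mg/kg stood at 10.16, below the next at 10.41. Cd22, a B lymphocyte marker, stood highest in replicate 4 of both groups, at 5.784 in vehicle with the next at 5.636, and at 5.879 at 6.41 mg/kg with the next at 5.512.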

How the results depend on the processing

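The count of 0 calls at 6.41 mg/kg against vehicle (limma; 1282 at an unadjusted p under 0.05) held in 20 of 21 alternatives, among them those that left out each array in turn (0 to 0). The exception was adjustment over the 5 doses together, with 1 call, a Sspn probe set that does not stand for its gene, 1.34-fold lower at a mean level of 3.76 (adjusted p = 0.0487). Calls at 64.1 against 6.41 mg/kg numbered 1, or 2 when only the 2 groups entered the fit (Cyp3a23-3a1 and Ugt2b1), and 1 to 2 with arrays left out, and Cyp3a23-3a1 was called in each alternative run. Against 0.641 mg/kg the count was 0 to 0 with arrays left out. Deviations of same-numbered arrays correlated at -0.0092 to 0.22, and 3 of 6 treated arrays correlated best with their own number. These values do not settle whether the replicate numbers pair the samples. With the replicate block the 3 counts of calls were 0, 1 and 0. The CAR and PXR count of 7 was 7 with the block and 5 to 8 with arrays left out. The cholesterol synthesis count of 9 was 10 with the block and 1 to 14 with arrays left out; these counts were added as alternatives after seeing the data. The 68 named genes gave 1474 values under 22 alternatives, and 0 were called (lowest limma adjusted p 0.100). All lay within a residual SD of the value reported, a wide margin that leaving out 1 array of a group can rarely cross. That all stayed inside it therefore says little about their stability. Within it the log2 difference of Nqo1 ran from -0.57 to -0.063 and that of Scd from -0.34 to 0.25. In at least 1 alternative 8 uncalled genes changed sign, Abcc3, Cpt1a, Cyp3a9, Cyp7a1 and Scd among them. Centring arrays on their medians moved the median of all probe sets to 0.0086, and repeated quantile normalization to -0.00091. The scatter among arrays and their number set the limits of detection.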

Other observations

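The largest ratios at 6.41 mg/kg against vehicle belonged to probe sets with wide spreads among the arrays, and none was called; they were singled out after their values were seen. Past 2-fold stood 5 probe sets upward and 2 downward. Ubd, a ubiquitin-like modifier induced by inflammatory signals, ran from 4.56 to 9.44 in vehicle (median 6.09) and from 7.42 to 9.11 at 6.41 mg/kg (median 8.53), a ratio of 3.65-fold (95% CI 1.30 to 10.2). Hykk, hydroxylysine kinase, ran from 8.43 to 9.29 in vehicle and from 6.61 to 8.56 at 6.41 mg/kg, 2.11-fold lower (1.21 to 3.67). The Ugt2b probe set that stands for that symbol held a vehicle array at 5.02 beside a vehicle median of 12.80, with treated arrays from 12.56 to 12.90. A probe set shared by the histocompatibility genes RT1-A3 and RT1-A2 ran from 3.44 to 10.87 in vehicle and from 3.40 to 10.30 at 6.41 mg/kg. Abo3, a glycosyltransferase gene, ran from 2.60 to 6.31 in vehicle and from 2.86 to 7.16 at 6.41 mg/kg.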
